A study of Homo sapiens with 24 samples.

Results

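Untreated Cal33 cells were set against untreated SAS cells, gene by gene. Both are established lines of squamous cell carcinoma of the head and neck (HNSCC) that the labels place in the tongue, and both carry the genotype label WT. The rule took the 6 sham libraries of the series, 3 of Cal33 and 3 of SAS, out of 24, and left out every gene of chromosomes X and Y. Sham cells received 0 Gy and no GSK-J1, a histone demethylase inhibitor, and RNA was taken at 24 hours as in the treated arms, which held GSK-J1 at 4.5 µM, a single X-ray dose of 4 Gy, or both. Each line stands for 1 tumour, so a difference between Cal33 and SAS is a difference between 2 lines. Nothing in the labels says that the 3 replicates of a line were separate cultures, and p-values therefore measure the spread between these libraries, which may be technical.

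Squamous carcinomas grow from stratified epithelium, whose basal cells make the keratins KRT5 and KRT14 and whose upper layers switch to other keratins and to cornified envelope proteins. The lining of the mouth uses KRT4 and KRT13 in its upper layers, while KRT7, KRT8, KRT18 and KRT19 belong to simple, single-layered epithelia. Carcinoma lines often keep only part of this programme, and they differ in their immune genes, in growth factor genes and in the genes they have silenced.

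Whole-series values were checked first. The sham libraries held between 64417175 and 92948903 counted read pairs in Cal33 cells and between 67945989 and 96138774 in SAS cells, and between 94.86 and 95.14% of them lay on the strand of the gene. Correlations of log2 CPM (counts of a gene per 1000000 counts of the library) were between 0.986 and 0.993 within a line and between 0.830 and 0.851 across lines. Transcripts of one line were nearly absent from the other: 11 genes taken from the 4 Gy libraries as Cal33 genes reached at most 0.00484% of their Cal33 level in any sham SAS library, and 6 SAS genes reached at most 0.00477% of their SAS level in any sham Cal33 library. Mitochondrial transcripts took 9.86 to 10.1% of the counts in Cal33 cells and 3.65 to 4.65% in SAS cells.

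The squamous label fitted both lines. Among 22 squamous markers, TP63, the master regulator of squamous epithelium, had 399, 285 and 339 CPM in Cal33 cells, against 336, 277 and 346 CPM in SAS cells, and its groups overlapped. KRT5, the basal keratin, had 5815, 4662 and 4020.3 CPM in Cal33 cells, against 1569.5, 2258 and 1171 CPM in SAS cells. Per kilobase of exon, the squamous markers summed to 2982 CPM in Cal33 cells and 1882 CPM in SAS cells, and the 14 tested markers of other cell types, of 18 listed, to 15.6 CPM in Cal33 cells and 21.3 CPM in SAS cells. PTPRC of leukocytes stood at 0.0434 ± 0.0257 CPM in Cal33 cells and 0.00521 ± 0.00903 CPM in SAS cells (SD, n = 3 each), and LUM of fibroblasts at 0.134 ± 0.0479 CPM in Cal33 cells and 0.0754 ± 0.0727 CPM in SAS cells (SD, n = 3 each). None of the other markers was at 0 in Cal33 cells, and 1, COL3A1, was at 0 in all SAS libraries. Of the 14, 4 were higher and 2 lower in Cal33, and all 4 higher and 1 of the lower passed an absolute log2 fold change of 2. Of these calls, only a collagen gene of fibroblasts, higher, and a leukocyte gene, lower, had at least 1 CPM in the higher line. Endothelial CDH5 stood out with 24.7, 55.5 and 46.0 CPM in Cal33 cells, against 89.2, 85.8 and 7.65 CPM in SAS cells. It was not called, and without SAS replicate 3 it was, with a log2 fold change of -1.05.

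In all, 24392 genes were tested with edgeR's quasi-likelihood test, and 23624 of them lay outside X and Y. A gene was called when its p-value, adjusted by the Benjamini-Hochberg method over all genes tested, was under 0.05. Of the 23624 genes 11438 were called, which is 48.4%. Cal33 cells were higher for 5967 genes (25.3%) and lower for 5471 (23.2%), and the shares called in each list below are to be read beside these percentages. A log2 fold change over 2 was reached by 2491 called genes (10.5%) and one under -2 by 1932 (8.18%). The 3 Cal33 and 3 SAS libraries did not overlap in 58.1% of genes. Across the 14019 genes with at least 1 CPM in the higher line the median log2 fold change was 0.0015. TMM scaling aims at a centre near 0, so this value is set by the scaling and is no result about the lines. Log2 fold changes are given ± an approximate standard error (SE). It was derived as the absolute log2 fold change over the square root of the test's F statistic, and was not estimated by the fit itself. CPM values refer to TMM-scaled libraries.

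**Figure D1:**
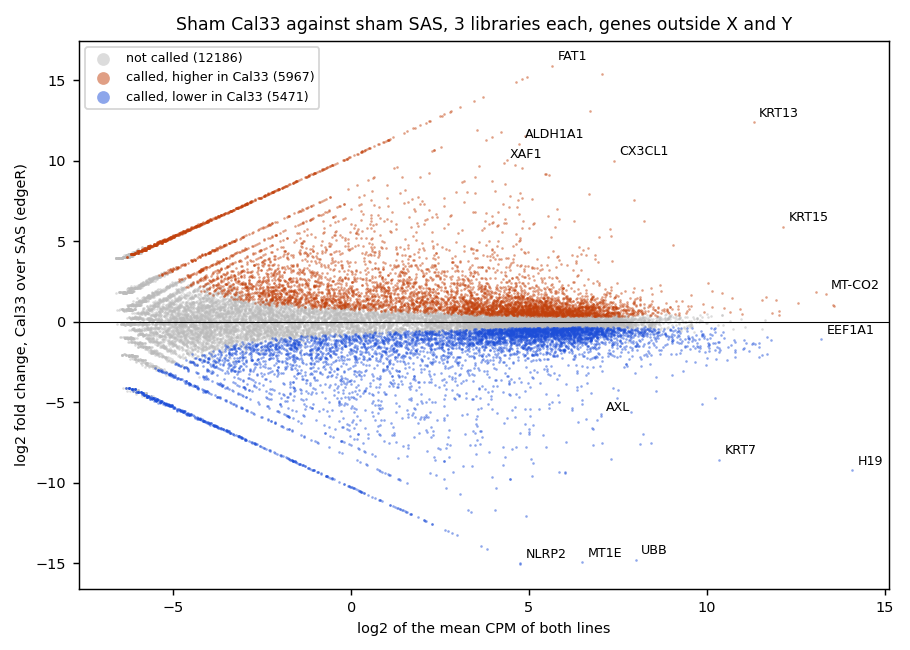
Each point is a gene outside X and Y, with the log2 of its mean CPM over both lines on the x axis and the log2 fold change of sham Cal33 over sham SAS on the y axis, as edgeR fitted it from 3 libraries each. Coloured points were called: 5967 higher in Cal33 and 5471 lower, and the straight upper and lower edges are genes with few or no reads in one line.

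The largest differences were genes read in one line and not in the other. With at least 1 CPM in Cal33 and at most 3 counts in the 3 SAS libraries together there were 97 protein-coding genes, and 96 had the reverse pattern. FAT1, a giant cadherin and a tumour suppressor in squamous carcinoma, had 109, 98.3 and 92.3 CPM in Cal33 cells, against 0 CPM in every SAS library, with 24035 counts over the Cal33 libraries. Set against a floor of 3 counts over the group, it was at least 7289-fold higher in Cal33 cells. Fitted fold changes of such genes depend on a prior count and are not quoted.

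TUSC3 of the oligosaccharyltransferase complex was at least 4548-fold higher in Cal33 cells, SYCE1 of the synaptonemal complex at least 4102-fold, MPPED2 at least 3569.6-fold, and NOS1, the neuronal nitric oxide synthase, at least 1960.2-fold, with no read in SAS cells for any of these. FLRT3, a leucine-rich membrane protein, SDR42E1 and APCDD1, a WNT inhibitor, were likewise at least 1592-, 1206- and 996-fold higher. SULF1, a heparan sulfatase, and FUOM, fucose mutarotase, completed the list with at least 901- and 854-fold. PTPRZ1, a receptor phosphatase, had 5 counts in SAS cells against 209 ± 56.0 CPM in Cal33 cells. Cal33 libraries were above every SAS library for all of them, as the choice required.

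In the other direction NLRP2, a NOD-like receptor, had 0 CPM in every Cal33 library, against 57.6, 58.4 and 45.9 CPM in SAS cells, and it was at least 4269-fold lower in Cal33 cells. MT1E, a zinc-binding metallothionein, had 0, 0.0146 and 0 CPM in Cal33 cells, against 239, 178 and 124 CPM in SAS cells, with 1 count over the Cal33 libraries. UBB, a polyubiquitin gene, had 0.0398, 0 and 0.0102 CPM in Cal33 cells, against 550.0, 560.0 and 424 CPM in SAS cells. It holds near-identical ubiquitin repeats that other genes share, so the assignment of reads to it is uncertain.

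PTPLAD2, a fatty acid elongation enzyme beside the CDKN2A locus, was at least 2265-fold lower in Cal33 cells, and ADAMTS12, a metalloprotease, at least 1948-fold. JAM3, a junctional adhesion molecule, and MARC2, a mitochondrial amidoxime reductase, were at least 1069.5- and 1146-fold lower. ITGBL1 had 3 counts in Cal33 cells, DPYSL5 had 2 and GTSF1 had 1, against 60.6 ± 2.95 CPM, 33.3 ± 3.37 CPM and 20.8 ± 0.989 CPM in SAS cells. MGMT, which removes alkyl groups from guanine, was also without a read in Cal33 cells and had 9.33, 8.68 and 6.997 CPM in SAS cells.

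The genes off in Cal33 were gathered on chromosome 19. It held 31 of the 96, although 7.14% of the protein-coding genes with at least 1 CPM in SAS cells lie there, and it held 1 of the 97 genes off in SAS. Of these 31 genes 24 were ZNF genes, which encode zinc-finger proteins, many of them repressors of transposable elements that sit in large clusters on this chromosome. Of 180 ZNF genes tested there, 142 had at least 1 CPM in SAS cells and 24 of these had at most 3 counts in Cal33 cells, which is 16.9% against 0.833% of all protein-coding genes. Of the 122 with at least 1 CPM in Cal33 cells, 0 were off in SAS cells. Over the whole list 42 members were higher in Cal33 and 45 lower (25.3% and 23.2% over all genes), with a median log2 fold change of 0.24, and without SAS replicate 1 or 2 the number higher was 27.

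Many silent ZNF genes were neighbours, in rows of 8 or of 3, and others stood outside such rows. Between chr19:36936021-37403931 in the files' build (GRCh37 coordinates of hs37d5), 8 tested ZNF genes in a row from ZNF566 to ZNF345 had at most 3 counts over the Cal33 libraries, and the 5 protein-coding genes of that stretch with at least 1 CPM were all off in Cal33. A second row of 8, from ZNF611 to ZNF160, spanned chr19:53206066-53606689, and its 7 protein-coding genes with at least 1 CPM were all off. ZNF260 had 0 CPM in every Cal33 library, against 7.999, 9.11 and 11.9 CPM in SAS cells. ZNF160 had 0 CPM in every Cal33 library, against 16.2, 15.96 and 15.0 CPM in SAS cells. HKR1, a zinc-finger gene of chromosome 19 outside both rows, had 0 CPM in every Cal33 library, against 12.1, 11.6 and 13.8 CPM in SAS cells. All 3 were read in every SAS library. ZNF71 had no read in Cal33 cells and 7.65, 7.91 and 10.0 CPM in SAS cells, and ZNF468 had none and 6.31, 6.64 and 9.18 CPM. ZNF genes of one cluster are close copies, so reads could be split between neighbours. ZNF383, between the first row and the next silent genes, had 1.83 ± 0.196 CPM in Cal33 cells and 1.36 ± 0.313 CPM in SAS cells (SD, n = 3 each) and was not called.

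**Figure D2:**
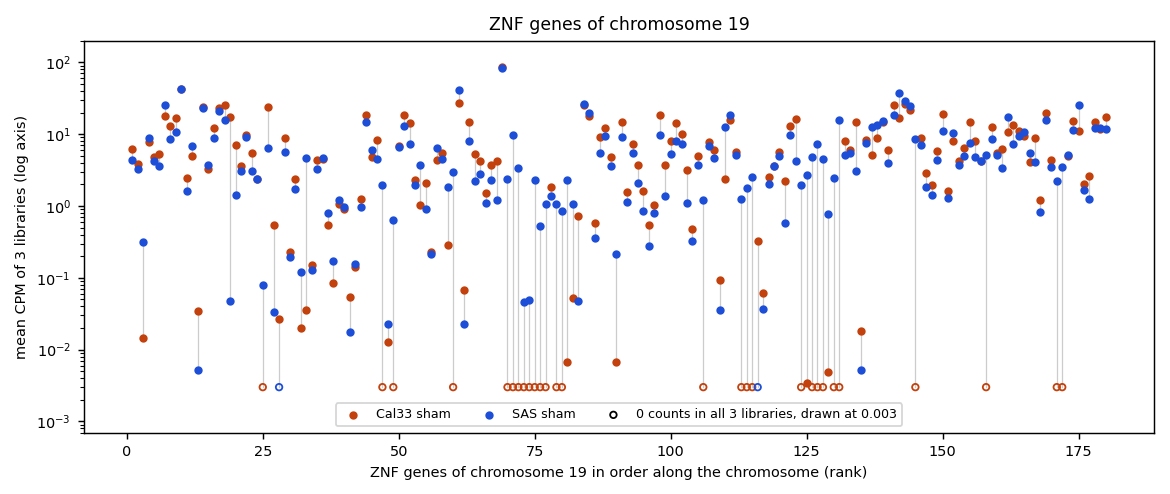
The 180 tested ZNF genes of chromosome 19 stand in order along the x axis, by rank, with the mean CPM of 3 sham libraries of each line on a logarithmic y axis and a grey line joining both values of a gene. Open circles mark 0 counts in all 3 libraries, as for 28 genes in Cal33. Some of these lie in the rows of 8 at ranks 70 to 77 and 124 to 131, where single Cal33 genes have 1 to 3 counts, and others lie outside them.

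Promoters of genes off in one line are shown for their CpG dinucleotides, the sites of DNA methylation. The 250 bases before the RefSeq start (GRCh38.p14, 1 start per gene) are given 5′ to 3′ on the strand of the gene, with each CpG in capitals. ZNF160 and ZNF260 were off in Cal33 and FAT1 was off in SAS.
ZNF160 (chr19:53103423-53103672, minus strand): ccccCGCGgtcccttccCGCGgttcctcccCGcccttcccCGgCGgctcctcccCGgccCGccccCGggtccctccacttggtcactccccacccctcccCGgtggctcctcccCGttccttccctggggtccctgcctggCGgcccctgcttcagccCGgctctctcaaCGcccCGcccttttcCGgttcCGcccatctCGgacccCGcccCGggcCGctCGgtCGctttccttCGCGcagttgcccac
ZNF260 (chr19:36528272-36528521, minus strand): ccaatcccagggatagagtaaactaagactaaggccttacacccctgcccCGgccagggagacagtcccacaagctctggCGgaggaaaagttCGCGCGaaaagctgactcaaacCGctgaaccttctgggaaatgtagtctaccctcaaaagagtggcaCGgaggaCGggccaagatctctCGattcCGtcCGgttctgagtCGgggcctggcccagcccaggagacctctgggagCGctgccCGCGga
FAT1 (chr4:186726697-186726946, minus strand): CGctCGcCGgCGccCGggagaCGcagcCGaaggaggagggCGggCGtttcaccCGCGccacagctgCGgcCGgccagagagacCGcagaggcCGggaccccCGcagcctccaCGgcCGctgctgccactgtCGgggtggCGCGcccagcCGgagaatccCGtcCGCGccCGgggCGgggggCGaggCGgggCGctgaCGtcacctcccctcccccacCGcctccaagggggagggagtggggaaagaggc

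These windows held 26, 15 and 32 CpGs. With over 50% G and C and an observed to expected CpG ratio over 0.6 as the bound, 43 of 68 matched genes off in Cal33 had a CpG-rich window (63.2%) and 38 of 68 genes off in SAS (55.9%), against 76.7% of the 9260 matched protein-coding genes with at least 1 CPM in the higher line. Of 21 matched ZNF genes of chromosome 19 that were off in Cal33, 17 had one (81.0%), against 111 of all 158 matched ZNF genes of chromosome 19 (70.3%). DNA methylation was not analysed here.

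Keratins separated the lines. Keratins of stratified oral mucosa were higher in Cal33 cells, and most keratins of simple epithelium were higher in SAS cells. The 7 simple epithelial keratins still summed to 972 to 1117.5 CPM in the Cal33 libraries, against 6492 to 7927 CPM in the SAS libraries. KRT13, the suprabasal keratin of the mouth, had 6929, 4226 and 4124 CPM in Cal33 cells, against 1.21, 1.501 and 0.238 CPM in SAS cells, a log2 fold change of 12.38 ± 0.64. KRT15, a basal keratin, had 12254, 8500.3 and 6177 CPM in Cal33 cells, against 137, 229 and 86.7 CPM in SAS cells, a log2 fold change of 5.89 ± 0.40. KRT4, the partner of KRT13, had 325, 235 and 55.7 CPM in Cal33 cells, against 1.08, 1.16 and 0.314 CPM in SAS cells. All 6 mucosal keratins were called higher in Cal33 (25.3% over all genes), with a median log2 fold change of 6.92, and no Cal33 library overlapped a SAS library for KRT13, KRT15 or KRT4.

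Among simple epithelial keratins 6 of 7 were lower in Cal33 and 1 was higher. KRT7 had 6.44, 6.70 and 7.31 CPM in Cal33 cells, against 2425, 2641 and 2718 CPM in SAS cells, a log2 fold change of -8.57 ± 0.18. KRT19 had 6.40, 4.26 and 3.23 CPM in Cal33 cells, against 493, 786 and 473 CPM in SAS cells, a log2 fold change of -6.98 ± 0.33. KRT8 and KRT18, which pair with each other, had log2 fold changes of -1.78 ± 0.16 and -2.26 ± 0.17, smaller than those of KRT7 and KRT19.

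**Figure D3:**
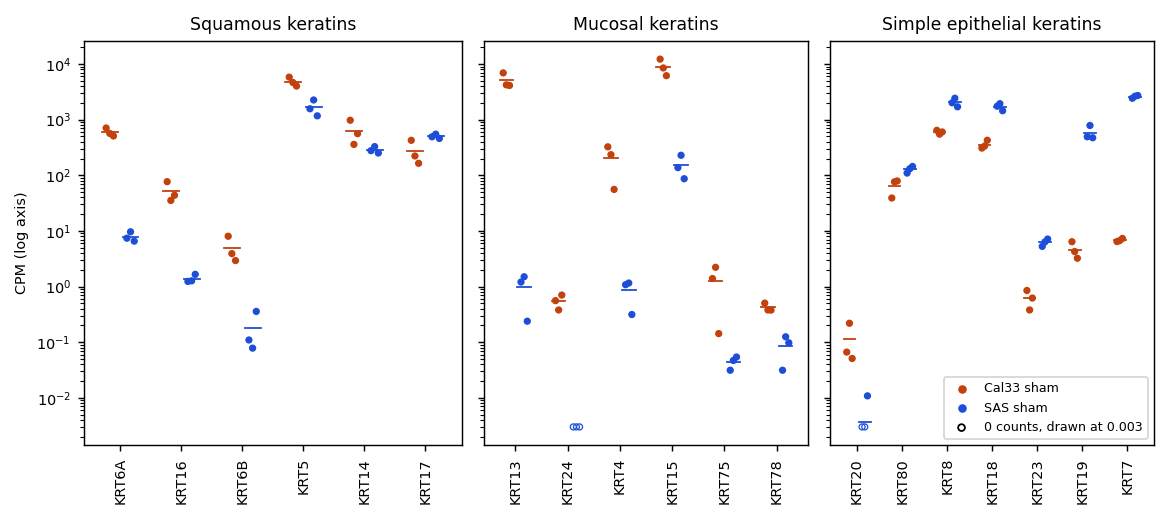
CPM of keratin genes is shown on a logarithmic y axis for each of the 3 sham Cal33 and 3 sham SAS libraries (points), with horizontal bars at the group means and open circles for 0 counts. All 6 mucosal keratins lie higher in Cal33 cells, and KRT7, KRT19 and KRT23 lie far lower.

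Of the 22 squamous markers 11 were higher in Cal33, 5 lower and 6 not called. KRT6A, KRT16 and KRT6B, the keratins of activated and wounded epithelium, had log2 fold changes of 6.24 ± 0.22, 5.22 ± 0.31 and 4.67 ± 0.56, and KRT6A had 708, 565 and 509 CPM in Cal33 cells, against 7.40, 9.65 and 6.55 CPM in SAS cells. KRT6A and KRT6B are near-identical copies, and reads may have been split between them. CDH1, the epithelial cadherin, had 175, 183 and 167 CPM in Cal33 cells, against 355, 451 and 319 CPM in SAS cells, and was lower in Cal33, with a log2 fold change of -1.10 ± 0.15.

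Genes of cornification, the last step of squamous differentiation, were on balance higher in Cal33 cells. Of 29 tested, 15 were higher and 5 lower (2 or 3 lower when any Cal33 replicate or SAS replicate 2 was left out), with a median log2 fold change of 1.22. TGM1, the transglutaminase that crosslinks the cornified envelope, had 87.0, 39.3 and 60.5 CPM in Cal33 cells, against 7.17, 6.77 and 4.26 CPM in SAS cells. SPRR1B, an envelope precursor, had 5.97, 3.34 and 3.42 CPM in Cal33 cells, against 0.0470, 0.156 and 0.0650 CPM in SAS cells, and ECM1 had 7.20 ± 1.05 CPM in Cal33 cells and 0.812 ± 0.0936 CPM in SAS cells (SD, n = 3 each). CSTA, cystatin A, had a log2 fold change of 2.30 ± 0.21. DMKN, dermokine, went the other way with 41.3 ± 3.28 CPM in Cal33 cells and 106 ± 15.9 CPM in SAS cells (SD, n = 3 each). Late genes were near the floor in both lines, with FLG, filaggrin, at 0.0404 ± 0.0125 CPM in Cal33 cells and 0.132 ± 0.0606 CPM in SAS cells (SD, n = 3 each).

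The S100 and kallikrein families had called members in both directions, as did all genes (25.3% higher and 23.2% lower). Of 16 S100 genes 4 were higher and 3 lower in Cal33. Of 13 kallikreins and their inhibitors 4 were higher and 5 lower. S100A8, a subunit of calprotectin, had 56.4, 22.8 and 31.7 CPM in Cal33 cells, against 1.22, 0.907 and 0.271 CPM in SAS cells. Its partner S100A9 had 139, 56.7 and 89.9 CPM in Cal33 cells, against 863, 467 and 82.6 CPM in SAS cells. The calprotectin subunits were called in opposite directions, but S100A9 overlapped between the lines, and its log2 fold change of -2.30 ± 0.62 was -1.52 without SAS replicate 1. S100A7, psoriasin, had 0.398, 0.978 and 0.621 CPM in Cal33 cells, against 70.6, 45.1 and 7.91 CPM in SAS cells. KLK7, a desquamation protease, and SPINK5, its inhibitor, were higher, with log2 fold changes of 2.78 ± 0.24 and 4.21 ± 0.19. KLK6 and KLK13 were lower, with log2 fold changes of -3.16 ± 0.38 and -5.65 ± 0.21. SERPINB2, which inhibits urokinase, had 2.00 ± 1.18 CPM in Cal33 cells and 50.6 ± 22.8 CPM in SAS cells (SD, n = 3 each). SERPINB13, an inhibitor of cathepsins, had 54.9 ± 14.6 CPM in Cal33 cells and 7.42 ± 3.86 CPM in SAS cells (SD, n = 3 each).

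Desmosomes, which bind squamous cells to each other, were read in both lines. Of 12 genes 6 were higher in Cal33 and 0 were lower. PKP1, plakophilin 1, had 572, 448 and 373 CPM in Cal33 cells, against 119.9, 139 and 95.2 CPM in SAS cells. DSG3, the pemphigus antigen, had 145, 117 and 118 CPM in Cal33 cells, against 48.0, 43.2 and 63.6 CPM in SAS cells. Junction and adhesion genes outside the desmosome were lower for some and higher for others. CLDN1, a tight junction claudin, had 96.5, 99.7 and 72.2 CPM in Cal33 cells, against 2624, 2606 and 1757 CPM in SAS cells, a log2 fold change of -4.70 ± 0.22. OCLN, occludin, was lower, with a log2 fold change of -1.94 ± 0.16, and PRSS8, a membrane protease of epithelia, was higher, with a log2 fold change of 4.13 ± 0.37. Of 30 epithelial state genes 9 were higher, 9 lower and 12 not called.

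Of 28 mesenchymal state genes 17 were lower in Cal33 (23.2% over all genes) and 3 higher, with a median log2 fold change of -1.32. AXL, a receptor tyrosine kinase, had 4.80, 2.70 and 5.47 CPM in Cal33 cells, against 183, 195 and 388 CPM in SAS cells. FN1, fibronectin, had 2.83, 3.14 and 4.47 CPM in Cal33 cells, against 97.05, 137 and 199 CPM in SAS cells. TWIST2, a transcription factor of epithelial to mesenchymal transition, had 0.0133, 0 and 0 CPM in Cal33 cells, against 3.98, 4.63 and 4.17 CPM in SAS cells. None of the Cal33 libraries reached a SAS library for these 3 genes. VIM, vimentin, the classical mesenchymal filament, had 0.0664, 0.161 and 0.0713 CPM in Cal33 cells, against 3.02, 2.66 and 3.14 CPM in SAS cells, a low level in both lines. LOX was lower, with a log2 fold change of -3.61 ± 0.31. TAGLN and FBN1 were higher, with log2 fold changes of 2.31 ± 0.30 and 1.88 ± 0.41. The other TWIST gene of the list was also called higher in Cal33, opposite to TWIST2.

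Among matrix genes and their receptors, ITGA4, an integrin chain usually of leukocytes, had 0.438, 0.336 and 0.550 CPM in Cal33 cells, against 51.0, 48.8 and 59.4 CPM in SAS cells. ITGB2, another leukocyte chain, had 1.98, 2.70 and 6.74 CPM in Cal33 cells, against 102, 91.3 and 62.1 CPM in SAS cells. ITGB6, the epithelial chain that activates TGF-beta, had 86.7, 58.4 and 117 CPM in Cal33 cells, against 17.3, 15.7 and 7.07 CPM in SAS cells. These chains were among those with the largest fold changes of their list and do not stand for it. Of 20 integrin subunits tested 6 were higher and 8 lower in Cal33, with a median log2 fold change of -0.02. LAMA4 was lower in Cal33, with a log2 fold change of -7.17 ± 0.34. LAMA1 was higher, with a log2 fold change of 5.82 ± 0.26. Cadherins differed in both directions too. CDH13 and CDH4 were lower, with log2 fold changes of -7.06 ± 0.27 and -5.94 ± 0.38. FAT3 and PCDH7 were higher, with log2 fold changes of 7.66 ± 0.48 and 3.83 ± 0.35. Of 25 genes of matrix proteases, their inhibitors and the urokinase system, 10 were higher and 6 lower in Cal33, and the median difference over the list was 0.05 on the log2 scale. MMP10, stromelysin 2, had 165, 86.9 and 21.4 CPM in Cal33 cells, against 2.33, 0.500 and 0.108 CPM in SAS cells, and MMP1, MMP13 and MMP28 were higher, with log2 fold changes of 2.13 ± 0.56, 3.57 ± 0.75 and 4.13 ± 0.38. The proteases MMP14 and ADAMTS1 were lower, with log2 fold changes of -1.29 ± 0.16 and -1.41 ± 0.33. Of the inhibitors, TIMP3 was lower, with a log2 fold change of -2.59 ± 0.26, and SERPINE2 was higher, with a log2 fold change of 3.92 ± 0.20.

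Interferon-stimulated genes were higher in Cal33 cells. These genes are switched on by interferons and encode antiviral proteins. Of 40 tested, 33 were called higher and 1 lower (25.3% and 23.2% over all genes), with a median log2 fold change of 2.41 against 0.058 over all genes. XAF1, a pro-apoptotic factor, had 64.7, 27.5 and 26.3 CPM in Cal33 cells, against 0.0626, 0.0156 and 0.0433 CPM in SAS cells. RSAD2, viperin, had 54.9, 56.1 and 55.9 CPM in Cal33 cells, against 0.595, 0.156 and 0.0975 CPM in SAS cells. OAS2, which makes the RNase L activator, had 156, 87.3 and 88.1 CPM in Cal33 cells, against 1.36, 0.922 and 0.347 CPM in SAS cells, and no Cal33 library overlapped a SAS library for these 3 genes.

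IFI27 had 229, 34.1 and 17.8 CPM in Cal33 cells, against 0.203, 0.156 and 0.141 CPM in SAS cells. Its Cal33 libraries spread widely. Replicate 1 was the highest Cal33 library for 23 of the 40 genes, and replicate 3 was the lowest SAS library for 37 of them, against 4807 and 5241 of the 14019 genes with at least 1 CPM in the higher line. Without Cal33 replicate 1 the list had 31 members higher and a median of 2.48, and without SAS replicate 3 it had 32 and a median of 2.23. Among the members, the RNA sensor MDA5 (IFIH1) and the transcription factors IRF7 and IRF9 were higher, with log2 fold changes of 2.18 ± 0.19, 2.11 ± 0.43 and 2.10 ± 0.29. Without Cal33 replicate 1 IRF7 was at 1.26. IRF1, another factor of this family, was the one member lower in Cal33, with 118, 96.6 and 157 CPM in Cal33 cells, against 375, 299 and 203 CPM in SAS cells.

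**Figure D4:**
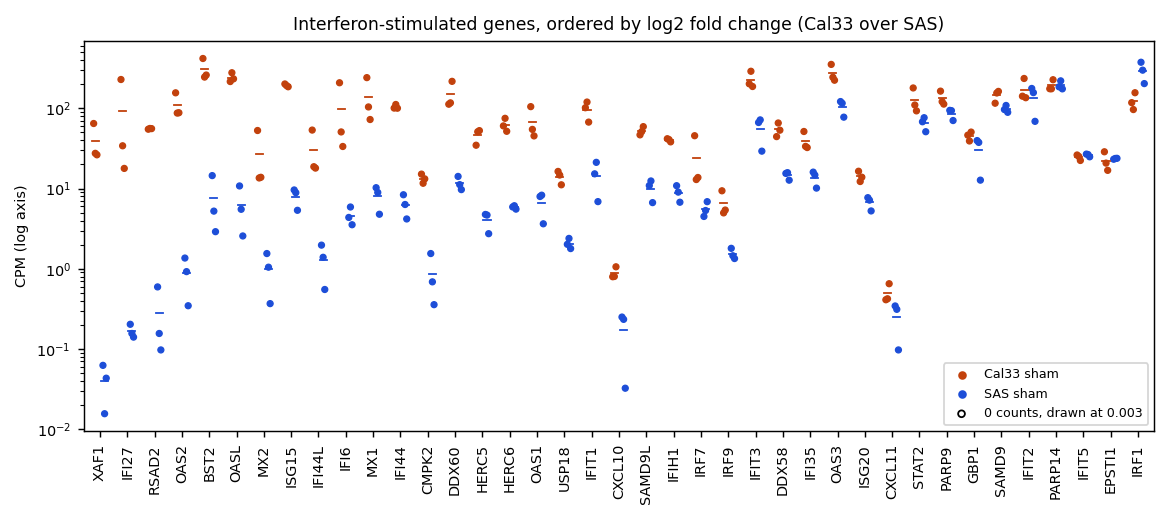
CPM of interferon-stimulated genes is shown on a logarithmic y axis for each of the 3 sham Cal33 and 3 sham SAS libraries (points), with bars at the group means and genes ordered from the highest to the lowest log2 fold change. Genes from XAF1 to DDX58 lie higher in Cal33 cells, and IRF1, at the right, lies lower.

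Promoters of 3 of these genes are shown with the interferon-stimulated response element, searched as GAAANNGAAA on both strands, in capitals (overlapping matches are joined). They are the 250 bases before the RefSeq start in GRCh38.p14.
IFI27 (chr14:94110486-94110735, plus strand): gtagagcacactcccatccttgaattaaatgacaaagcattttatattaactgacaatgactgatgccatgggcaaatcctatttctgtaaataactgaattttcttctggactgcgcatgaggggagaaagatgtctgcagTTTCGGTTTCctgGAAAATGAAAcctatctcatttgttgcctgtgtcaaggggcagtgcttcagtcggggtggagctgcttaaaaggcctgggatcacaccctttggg
ISG15 (chr1:1013247-1013496, plus strand): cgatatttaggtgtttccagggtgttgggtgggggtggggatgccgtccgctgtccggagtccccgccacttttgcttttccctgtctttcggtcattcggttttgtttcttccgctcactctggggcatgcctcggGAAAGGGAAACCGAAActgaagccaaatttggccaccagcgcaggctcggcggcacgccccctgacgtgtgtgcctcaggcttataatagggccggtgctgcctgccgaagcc
BST2 (chr19:17405631-17405880, minus strand): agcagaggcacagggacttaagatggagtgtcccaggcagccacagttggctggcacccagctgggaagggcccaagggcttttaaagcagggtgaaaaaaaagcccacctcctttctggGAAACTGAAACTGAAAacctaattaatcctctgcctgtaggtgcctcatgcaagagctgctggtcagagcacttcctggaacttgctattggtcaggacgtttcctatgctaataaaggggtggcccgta

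The motif stood in 19 of the 32 members with a matched promoter (59.4%), and in 15 of the 26 matched members higher in Cal33 (57.7%). It stood in 2.501% of 11076 matched protein-coding genes tested and in 3.07% of 27305 promoters in the table. These shares describe the list and say nothing about the difference between the lines. ISG15, the ubiquitin-like modifier, had 201, 192 and 186 CPM in Cal33 cells, against 9.61, 8.89 and 5.36 CPM in SAS cells. BST2, tetherin, which holds virions at the cell surface, had 418, 245 and 260.0 CPM in Cal33 cells, against 14.5, 5.24 and 2.90 CPM in SAS cells.

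Most called antigen presentation genes were higher in Cal33 cells. Class I molecules show peptides to CD8 T cells, and 9 of 18 genes of this pathway were higher and 1 lower. Replicate 3 was the lowest SAS library for 17 of the 18 and replicate 2 the lowest Cal33 library for 13. Without SAS replicate 3 there were 9 members higher and the median was 0.58, and without Cal33 replicate 2 there were 11 and the median was 0.99, against 0.84 with all libraries. HLA-C and B2M were higher, with log2 fold changes of 1.92 ± 0.25 and 0.96 ± 0.20, and HLA-B was not called, with 522, 214 and 432 CPM in Cal33 cells, against 344, 179 and 104 CPM in SAS cells. It was called without Cal33 replicate 2 or SAS replicate 1, with log2 fold changes of 1.19 and 1.47. HLA genes vary between people and resemble each other, so how many reads of each were counted is uncertain. ERAP2, a peptide trimming protease, had 97.5, 119 and 152 CPM in Cal33 cells, against 11.4, 12.6 and 7.64 CPM in SAS cells.

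Class II genes, usually of professional antigen-presenting cells, were higher for 9 of 10 members, with a median log2 fold change of 2.59. HLA-DRA had 42.4, 22.9 and 15.8 CPM in Cal33 cells, against 0.814, 0.250 and 0.0433 CPM in SAS cells. CD74, the invariant chain, had 235, 73.3 and 73.5 CPM in Cal33 cells, against 64.6, 36.4 and 15.8 CPM in SAS cells. CIITA, their transcriptional activator, had 20.96, 11.9 and 13.8 CPM in Cal33 cells, against 7.80, 6.80 and 1.84 CPM in SAS cells. The groups overlapped for none of these. The CD74 call was lost without Cal33 replicate 1 or SAS replicate 3, at 0.92 and 1.33 against 1.71 ± 0.52, and that of CIITA without Cal33 replicate 1, at 1.24 against 1.51 ± 0.43. SAS replicate 3 was the lowest SAS library for all 10. The APOBEC3 deaminases, which edit viral DNA, were higher for 6 of 7, with APOBEC3F and APOBEC3G at log2 fold changes of 2.07 ± 0.26 and 2.68 ± 0.36. APOBEC3B had 39.6 ± 7.80 CPM in Cal33 cells and 29.2 ± 6.88 CPM in SAS cells (SD, n = 3 each). It was not called, but was without Cal33 replicate 1 or SAS replicate 2, with log2 fold changes of 0.59 and 0.63.

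Chemokines and cytokines differed in both directions. CX3CL1, fractalkine, had 365, 277 and 356 CPM in Cal33 cells, against 0.720, 0.219 and 0.0866 CPM in SAS cells. CCL5, a T cell chemokine, had 36.0, 33.0 and 35.3 CPM in Cal33 cells, against 0.470, 0.188 and 0.260 CPM in SAS cells. IL33, an alarmin, was higher, with a log2 fold change of 6.07 ± 0.75. The interleukin-1 genes went the other way. IL1A had 7.50, 4.86 and 18.8 CPM in Cal33 cells, against 105, 46.9 and 132 CPM in SAS cells, and IL1B was lower, with a log2 fold change of -2.13 ± 0.39. IL6 had 0.0133, 0.131 and 0.0204 CPM in Cal33 cells, against 1.86, 1.64 and 2.43 CPM in SAS cells. IL24 was lower, with a log2 fold change of -6.12 ± 0.35. Among checkpoint ligands VTCN1 and LGALS9 were higher, with log2 fold changes of 6.41 ± 0.59 and 6.20 ± 0.39. NT5E, the ectoenzyme CD73, was lower, with a log2 fold change of -2.07 ± 0.31. CD274, which encodes PD-L1, had 5.68, 5.08 and 6.67 CPM in Cal33 cells, against 13.5, 9.93 and 13.2 CPM in SAS cells, and was lower, with a log2 fold change of -1.07 ± 0.20.

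Aldehyde dehydrogenases mark a stem-like compartment in HNSCC by their enzyme activity. ALDH1A1 had 59.2, 68.1 and 31.2 CPM in Cal33 cells, against 0, 0.0782 and 0 CPM in SAS cells. ALDH3A1 had 556, 198 and 726 CPM in Cal33 cells, against 2.58, 3.14 and 2.05 CPM in SAS cells. Both were far higher in Cal33 cells. ALDH1A3 had 184, 172 and 186 CPM in Cal33 cells, against 275, 283 and 273 CPM in SAS cells, and was lower, with a log2 fold change of -0.62 ± 0.12. ALDH7A1 and ALDH1L2 were lower, with log2 fold changes of -6.20 ± 0.29 and -5.40 ± 0.39. Of 19 family members 10 were higher and 6 lower.

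Other putative stem cell markers differed in both directions, with 6 of 16 higher and 6 lower. CD44, the hyaluronan receptor, had 423, 402 and 544 CPM in Cal33 cells, against 595, 594 and 722 CPM in SAS cells, and was lower, with a log2 fold change of -0.48 ± 0.16. This call was lost without Cal33 replicate 1 or 2 or SAS replicate 3, at -0.43, -0.40 and -0.38. PROM1, which encodes CD133, was at 0.0571 ± 0.0287 CPM in Cal33 cells and 0.0469 ± 0.0414 CPM in SAS cells (SD, n = 3 each), near the floor. SOX2, a pluripotency and squamous lineage factor, had 88.8, 60.7 and 56.2 CPM in Cal33 cells, against 1.299, 1.38 and 0.466 CPM in SAS cells, a log2 fold change of 6.06 ± 0.38. MYC had 215, 131 and 198 CPM in Cal33 cells, against 768, 433 and 655 CPM in SAS cells, and was lower, with a log2 fold change of -1.77 ± 0.23. MET, the hepatocyte growth factor receptor, was lower, with a log2 fold change of -2.03 ± 0.22.

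Targets and regulators of NRF2, the transcription factor of oxidative stress, were higher for 18 of 28 members and lower for 6, with a median log2 fold change of 1.24. AKR1C2, an aldo-keto reductase, had 103, 92.7 and 67.5 CPM in Cal33 cells, against 0.141, 0.250 and 0.0758 CPM in SAS cells. AKR1C1, a close copy with which it may share reads, was higher, with a log2 fold change of 7.56 ± 0.27. GPX2, a glutathione peroxidase, had 55.2, 60.5 and 53.7 CPM in Cal33 cells, against 0.689, 1.16 and 0.379 CPM in SAS cells. AKR1B10, another reductase, had 88.1, 77.5 and 122.6 CPM in Cal33 cells, against 3.16, 3.96 and 0.574 CPM in SAS cells. No Cal33 library overlapped a SAS library for these genes. GCLC, which makes glutathione, was higher, with a log2 fold change of 2.69 ± 0.17. Against this, the ferritin genes FTH1 and FTL were lower, with log2 fold changes of -1.15 ± 0.19 and -0.98 ± 0.16. NQO1, a quinone reductase, had 171, 204 and 218 CPM in Cal33 cells, against 151, 177 and 194 CPM in SAS cells, and was not called. NFE2L2, which encodes NRF2, had 184 ± 7.95 CPM in Cal33 cells and 189.9 ± 17.4 CPM in SAS cells (SD, n = 3 each) and was not called. KEAP1, its inhibitor, was higher, with a log2 fold change of 0.65 ± 0.13.

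Promoters of 2 of these genes are shown with the antioxidant response element, searched as TGACNNNGC on both strands, in capitals. They are the 250 bases before the RefSeq start in GRCh38.p14.
GPX2 (chr14:64942746-64942995, minus strand): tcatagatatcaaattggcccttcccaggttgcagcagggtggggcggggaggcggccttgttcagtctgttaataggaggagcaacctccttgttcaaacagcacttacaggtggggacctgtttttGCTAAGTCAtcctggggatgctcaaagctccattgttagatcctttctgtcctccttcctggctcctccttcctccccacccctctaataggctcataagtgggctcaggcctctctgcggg
CBR1 (chr21:36069774-36070023, plus strand): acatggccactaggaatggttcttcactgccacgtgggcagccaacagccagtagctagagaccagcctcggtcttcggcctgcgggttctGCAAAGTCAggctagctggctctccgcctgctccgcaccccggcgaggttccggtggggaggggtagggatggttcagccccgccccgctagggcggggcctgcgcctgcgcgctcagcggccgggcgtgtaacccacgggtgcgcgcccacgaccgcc

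The motif stood in 6 of the 21 members with a matched promoter (28.6%), against 11.8% of 11076 matched protein-coding genes tested. Here too the share describes the list and not the difference between the lines. CBR1, a carbonyl reductase, had 137, 136 and 113 CPM in Cal33 cells, against 22.9, 24.8 and 20.6 CPM in SAS cells.

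Xenobiotic and metal genes differed likewise. CYP1A1, a target of the aryl hydrocarbon receptor, had 83.8, 20.1 and 86.5 CPM in Cal33 cells, against 0.470, 0.672 and 2.11 CPM in SAS cells. AHRR, the repressor of that receptor, had 0.730, 0.423 and 0.530 CPM in Cal33 cells, against 51.0, 57.0 and 82.8 CPM in SAS cells. The pair differed in opposite directions, and neither gene stands for the axis of this receptor. Its list was mixed: among 9 genes tested, calls in Cal33 cells were higher for 4 and lower for 3, AHRR included. The middle value of that list was 0.42 on the log2 scale. MT2A was lower in Cal33, with a log2 fold change of -1.54 ± 0.27, and MT1L, a metallothionein pseudogene, had no read in Cal33 cells and 86.4, 45.6 and 27.8 CPM in SAS cells. MT1X, with 45.4, 28.7 and 38.1 CPM in Cal33 cells, against 46.8, 22.4 and 16.1 CPM in SAS cells, was not called, except without SAS replicate 1, where its log2 fold change was 0.96. These genes are close copies, and reads may have been split between them.

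Of 14 genes of the EGFR family and its ligands, 6 were higher and 4 lower. Among the receptors, EGFR had 1090.2, 885 and 846 CPM in Cal33 cells, against 875, 751 and 938 CPM in SAS cells, and ERBB2 had 179.7 ± 26.8 CPM in Cal33 cells and 153 ± 7.65 CPM in SAS cells (SD, n = 3 each). Neither was called. ERBB3 was higher, with a log2 fold change of 0.54 ± 0.15. ERBB4 was higher too, but at 0.182 ± 0.103 CPM in Cal33 cells and 0.0229 ± 0.0235 CPM in SAS cells (SD, n = 3 each). Among the ligands EREG, epiregulin, had 1.10, 1.39 and 2.75 CPM in Cal33 cells, against 46.7, 22.8 and 56.8 CPM in SAS cells. AREG, HBEGF and TGFA were lower, with log2 fold changes of -2.43 ± 0.45, -1.76 ± 0.35 and -1.65 ± 0.17. EPGN, NRG4 and BTC were higher, with log2 fold changes of 6.25 ± 0.33, 4.14 ± 0.32 and 1.22 ± 0.21. EGF had 2.22, 1.69 and 3.10 CPM in Cal33 cells, against 0.0157, 0.0313 and 0 CPM in SAS cells, with 587 counts over the Cal33 libraries and 3 over the SAS libraries, a ratio of 178 (exact 95% interval 60.6 to 866), which covers counting error only. Output and feedback genes of MAPK signalling were lower for 11 of 21 members and higher for 2 (1 without Cal33 replicate 1). DUSP6, an ERK phosphatase, had 23.1, 15.3 and 39.3 CPM in Cal33 cells, against 206, 79.6 and 103 CPM in SAS cells. FOSL1, an AP-1 subunit, had 15.9, 19.95 and 28.03 CPM in Cal33 cells, against 91.8, 61.5 and 151 CPM in SAS cells. SPRY4, a feedback inhibitor, was lower, with a log2 fold change of -2.86 ± 0.27. FOS, another AP-1 subunit, was higher, with a log2 fold change of 2.498 ± 0.70, a call lost without Cal33 replicate 1, at 1.27.

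Of the TGF-beta and YAP axis 14 of 25 genes were lower and 5 higher. SMAD4, the shared SMAD, had 5.44, 5.15 and 5.28 CPM in Cal33 cells, against 37.6, 35.4 and 42.0 CPM in SAS cells. CYR61, a YAP target, had 82.0, 58.9 and 53.3 CPM in Cal33 cells, against 803, 431 and 874 CPM in SAS cells. ANKRD1, another, was lower, with a log2 fold change of -5.10 ± 0.49. BMP7, a bone morphogenetic protein, had 244, 209.6 and 209.9 CPM in Cal33 cells, against 13.98, 11.3 and 11.9 CPM in SAS cells. SMAD4 and both YAP targets were thus low in Cal33 and BMP7 high. Of 36 WNT pathway genes 16 were higher and 8 lower. WNT5A had 8.57, 9.68 and 9.17 CPM in Cal33 cells, against 0 CPM in every SAS library, at least 669.9-fold higher in Cal33 cells. WNT9A and LGR4, a receptor for R-spondins, were higher, with log2 fold changes of 4.49 ± 0.28 and 4.27 ± 0.18. DKK1, an inhibitor, was lower, with a log2 fold change of -2.20 ± 0.29. KIT, a receptor tyrosine kinase, had 3.19, 4.36 and 1.01 CPM in Cal33 cells, against 0 CPM in every SAS library. FGFR4 was higher, with a log2 fold change of 3.07 ± 0.21.

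Lineage transcription factors were higher for 16 of 30 and lower for 5. RUNX3 had 9.13, 7.60 and 6.97 CPM in Cal33 cells, against 0.0783, 0.0156 and 0.0325 CPM in SAS cells. FOXN1, a factor of keratinocyte differentiation, had 9.50, 3.52 and 5.02 CPM in Cal33 cells, against 0.0470, 0.0469 and 0.0108 CPM in SAS cells. HOPX had no read in SAS cells and 2.27 ± 1.09 CPM in Cal33 cells. TFAP2A and SOX9 were lower, with log2 fold changes of -1.18 ± 0.14 and -1.37 ± 0.26. HOX genes, which record position along the body axis, were lower for 20 of 36 and higher for 9, with a median log2 fold change of -0.97. HOXD13 had 0, 0.0146 and 0 CPM in Cal33 cells, against 3.71, 2.80 and 4.48 CPM in SAS cells. HOXB9 had 0.385, 0.496 and 0.642 CPM in Cal33 cells, against 7.03, 5.50 and 8.25 CPM in SAS cells. HOXB7 had 8.75, 7.63 and 5.93 CPM in Cal33 cells, against 0.485, 0.485 and 0.747 CPM in SAS cells. Genes of the same HOXB cluster thus differed in opposite directions.

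H19, an imprinted long noncoding RNA, showed the largest CPM difference of all genes lower in Cal33. It had 91.5, 37.1 and 45.6 CPM in Cal33 cells, against 35827, 38030.0 and 30006 CPM in SAS cells, and it alone took 2.88 to 3.58% of the counts of a SAS library against 0.00394 to 0.00961% of a Cal33 library. Its neighbour IGF2 had 0.0796, 0.0292 and 0.0407 CPM in Cal33 cells, against 0.141, 0.500 and 0.173 CPM in SAS cells, low in both lines, and its call was lost without SAS replicate 2. Of 17 imprinted genes 8 were lower and 4 higher. PLAGL1, PEG10 and MEST were lower, with log2 fold changes of -8.63 ± 0.49, -4.82 ± 0.44 and -4.14 ± 0.16, and CDKN1C was higher, with a log2 fold change of 2.52 ± 0.41. Among other noncoding RNAs UCA1 had 1.91, 6.13 and 6.79 CPM in Cal33 cells, against 235, 436 and 100.2 CPM in SAS cells. CCAT1 had 0.0929, 0.0730 and 0.0713 CPM in Cal33 cells, against 36.6, 38.0 and 41.3 CPM in SAS cells. TINCR, which acts in epidermal differentiation, was higher in Cal33, with a log2 fold change of 3.17 ± 0.36.

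Of 22 cyclins, kinases and inhibitors of G1 3 were higher and 6 lower. CDKN2A, which encodes p16 and ARF, had 18.9, 11.8 and 17.2 CPM in Cal33 cells, against 142, 151 and 149 CPM in SAS cells. CDKN2C, which encodes p18, had 24.7, 28.9 and 26.5 CPM in Cal33 cells, against 2.41, 3.30 and 2.17 CPM in SAS cells. These inhibitors thus differed in opposite directions. CCND2, cyclin D2, was lower, with a log2 fold change of -3.55 ± 0.45. CCND1 of 11q13 had 327, 313 and 299.8 CPM in Cal33 cells, against 424, 382 and 506 CPM in SAS cells, and was lower, with a log2 fold change of -0.48 ± 0.14, a call lost without Cal33 replicate 3 or SAS replicate 3, at -0.45 and -0.36. Around it, 10 of 14 genes of 11q13 were lower and 2 higher, with a median log2 fold change of -0.76. CDKN1A, which encodes the inhibitor p21, with 109.5, 61.7 and 55.6 CPM in Cal33 cells, against 71.7, 94.2 and 85.4 CPM in SAS cells, was called lower only when Cal33 replicate 1 was left out, at -0.51. MDM2, a ubiquitin ligase, was lower, with a log2 fold change of -1.31 ± 0.14.

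Of the BCL2 family and death receptors 15 of 28 were lower and 5 higher. HRK and BMF, BH3-only killers, were lower, with log2 fold changes of -3.23 ± 0.28 and -1.71 ± 0.31, and BCL2, the survival factor, had 5.31, 6.09 and 4.47 CPM in Cal33 cells, against 0.767, 0.578 and 1.26 CPM in SAS cells. Of 36 double-strand break repair genes 4 were higher, 9 lower and 23 not called, against 7 higher without Cal33 replicate 1 and 14 lower without Cal33 replicate 2. RBBP8, which starts end resection, was higher, with a log2 fold change of 1.36 ± 0.18, and FANCD2 of the Fanconi pathway lower, with a log2 fold change of -1.89 ± 0.18. PRKDC, the catalytic subunit of DNA-PK, had 359, 486 and 399 CPM in Cal33 cells, against 522, 581 and 687 CPM in SAS cells, and was lower, with a log2 fold change of -0.52 ± 0.16, a call lost without Cal33 replicate 1 or 3 or SAS replicate 3, at -0.43, -0.50 and -0.40. The median SE over all genes was 0.30 on the log2 scale.

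Methyl groups on lysine 27 of histone H3 are written by EZH2 and removed by KDM6B, a target of GSK-J1. KDM6B had 105, 50.5 and 89.8 CPM in Cal33 cells, against 59.0, 55.3 and 60.8 CPM in SAS cells, a log2 fold change of 0.49 ± 0.22. EZH2 had 36.1, 63.5 and 40.8 CPM in Cal33 cells, against 32.7, 37.7 and 39.8 CPM in SAS cells, a log2 fold change of 0.35 ± 0.20. Neither was called, except KDM6B without Cal33 replicate 2, at 0.74. Of 24 genes of this list 3 were higher (5 without Cal33 replicate 2) and 8 lower, and lower ones included EZH1, MTF2 and RNF2 with log2 fold changes of -0.88 ± 0.14, -0.85 ± 0.14 and -0.74 ± 0.17. Other Jumonji demethylases were lower for 7 of 15, with KDM2A at -1.24 ± 0.13, and higher for 1 (0 without SAS replicate 2).

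Genes of translation and of mitochondria had some of the largest CPM differences. EEF1A1, the elongation factor that brings tRNA to the ribosome, had 5522, 5626 and 7313 CPM in Cal33 cells, against 12739, 12628 and 13426 CPM in SAS cells, a log2 fold change of -1.07 ± 0.15. RPL3, of the large ribosomal subunit, had 1173, 1019 and 1274 CPM in Cal33 cells, against 5435, 4817 and 4227 CPM in SAS cells. RPS3, of the small subunit, had 1001, 936 and 1134 CPM in Cal33 cells, against 5249.9, 4402 and 4286 CPM in SAS cells. All were lower in Cal33. EEF2, PABPC1 and TPT1 were lower, with log2 fold changes of -1.11 ± 0.14, -1.97 ± 0.15 and -1.55 ± 0.16. A list of 80 cytosolic ribosomal protein genes, drawn up after these values were seen, had 74 lower and 4 higher, with a median log2 fold change of -1.29. Many of these genes have processed pseudogenes, and reads may have been shared with them. Mitochondrially encoded proteins were higher for 10 of 13 and lower for 1 (2 without Cal33 replicate 2 or SAS replicate 1). MT-CO2, of cytochrome oxidase, had 16312, 16309 and 15063 CPM in Cal33 cells, against 4051, 5406 and 5021 CPM in SAS cells. MT-ND1, of complex I, had 1338, 1966 and 1019 CPM in Cal33 cells, against 3103, 3814 and 3867 CPM in SAS cells, and was the one lower. With mitochondrial genes and small structural RNAs left out the ribosomal list had 74 lower and a median of -1.30.

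Differences were unevenly spread over chromosomes. Over the 12203 protein-coding genes with at least 1 CPM in the higher line, 29.1% were higher in Cal33, 28.7% lower, and the median log2 fold change was 0.004. Chromosome 13 had a median of -0.65, with 9.52% of its 210 genes higher and 61.0% lower. Chromosomes 3, 5 and 8 had medians of -0.45, -0.37 and -0.37. Chromosomes 21, 16 and 22 had medians of 0.45, 0.44 and 0.42, and on chromosome 22 50.7% of 302 genes were higher and 10.9% lower. DNA copy number was not analysed here, and its part in these shares was not tested.

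**Figure D5:**
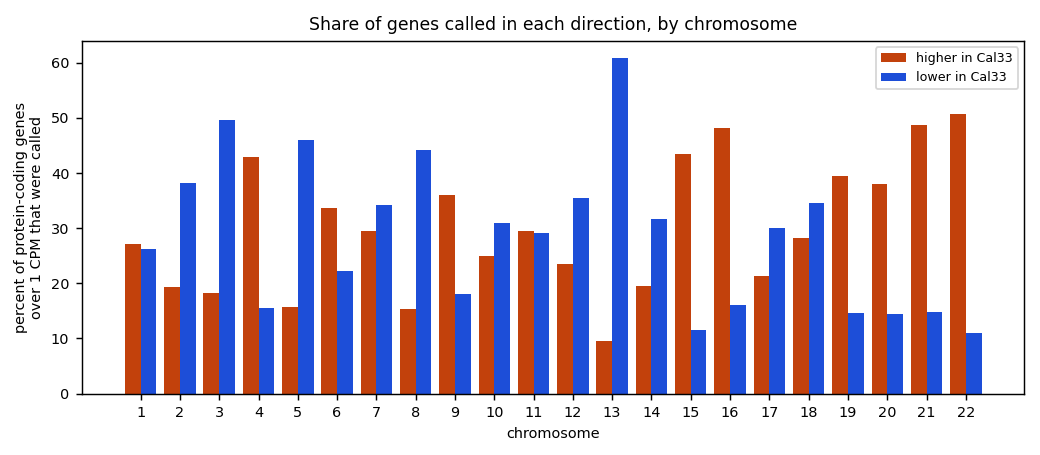
Bars give, for each autosome on the x axis, the percentage of its protein-coding genes with at least 1 CPM in the higher line that were called higher (left bar) or lower (right bar) in sham Cal33 than in sham SAS. Chromosome 13 reaches 61.0% lower and 9.52% higher, against 28.7% and 29.1% over all 12203 genes.

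In 600 windows of 20 neighbouring genes the median log2 fold change was over 0.75 in 19 and under -0.75 in 34. Of the 34, 14 lay on 3p, between TRNT1 and ARF4 at chr3:3168600-57583947, with medians of -1.76 to -0.91 and 230 of 280 genes lower in Cal33. Inside this stretch the window from UBE2E1 to CMTM8 had a median of -0.69. In the 4 Gy libraries, which this comparison did not use, the 14 windows had medians of -1.59 to -0.68. Another 4 were adjacent windows on 5p, chr5:140373-40835437 from PLEKHG4B to RPL37, with 68 of 80 genes lower. Of the 19 windows over 0.75, 10 lay on 16p, between POLR3K and CD2BP2 at chr16:96407-30366682. Their medians were 0.77 to 1.10, and 164 of their 200 genes were higher. Other windows inside this stretch missed the cut, with medians of 0.57 to 0.73.

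The same contrast was read in the treated arms, in libraries the sham comparison did not use. Of the sham calls higher in Cal33 that could be tested, 92.7% were also called higher under GSK-J1 (27.7% of all genes tested there were), 84.2% under 4 Gy (27.1%) and 82.9% under both (25.9%). Of the sham calls lower in Cal33, 93.1%, 83.1% and 82.5% were again lower (26.1%, 23.9% and 23.9% of all genes). Calls in the opposite direction numbered 0 under GSK-J1, 16 under 4 Gy and 25 under both. Among calls with an absolute log2 fold change over 2, the sign was the same in 99.7%, 98.8% and 98.7%. The first replicates of SAS under GSK-J1 and under both treatments held reads of Cal33 genes, at 1.32% and 0.665% of their Cal33 level, so the values of genes absent from SAS cells are less certain there.

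KRT13 had log2 fold changes of 7.47 under GSK-J1, 10.33 under 4 Gy and 8.35 under both. KRT7 had -8.66 under GSK-J1, -7.62 under 4 Gy and -7.49 under both, and H19 had -9.01 under GSK-J1, -8.97 under 4 Gy and -9.26 under both. For the interferon-stimulated gene OAS2 they were 6.24 under GSK-J1, 7.75 under 4 Gy and 7.69 under both, and for AXL -6.16 under GSK-J1, -4.29 under 4 Gy and -4.60 under both. These 5 genes had the same sign in every arm. Among the called genes named here, S100A9 and IRF1, both lower in sham Cal33, did not. S100A9 had -1.09 under GSK-J1, 0.93 under 4 Gy and 1.91 under both, and IRF1 had -0.81 under GSK-J1, 0.02 under 4 Gy and 0.40 under both. The difference of the lines under 4 Gy minus that in sham cells was called for 101 of 23824 genes (0.424%) when all 24 libraries were fitted together, 4 of the genes named here among them.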

How the data were processed

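RNA of Cal33 and SAS cells was sequenced after a TruSeq stranded total RNA preparation, and the authors aligned reads to hs37d5 with STAR 2.5.3a and counted them per gene with featureCounts of Subread 1.5.1. The deposited counts on the strand of the gene, which are not normalised, were used. The deposited FPKM and TPM columns were not used. Genes that averaged 1 count or more over the libraries were tested with edgeR 4.0.16 (R 4.3.3) by its quasi-likelihood test with TMM scaling, Cal33 over SAS, in the 6 sham libraries, with Benjamini-Hochberg adjustment over 24392 genes. Genes of X and Y stayed in the fit and the adjustment and out of all counts and names. A symbol held by several genes was read from the one with most counts. DESeq2 1.42.0, other scalings and filters, the replicate number as a block and each library left out were alternatives, one more of which was chosen after seeing the data: leaving out each treated library.

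Named genes were called genes with the largest fold changes (12 protein-coding and 4 other genes a direction, at least 10 CPM in the higher line, no overlap), the 8 largest CPM differences a direction, up to 4 called members a direction of each list with at least 1 CPM in the higher line, and 12 genes of known roles whatever their values. The comparison, its members and the lists were chosen with earlier results of these data known. The ribosomal list and these names outside the rule were chosen after their values were seen: APOBEC3B, B2M, BST2, CBR1, CD74, CDH5, CDKN1A, CIITA, COL3A1, ERBB2, ERBB3, ERBB4, FBN1, FLG, GCLC, HLA-B, IFIH1, IGF2, IL1B, IRF7, IRF9, ISG15, KEAP1, KRT5, KRT8, LOX, LUM, MEST, MGMT, MMP1, MMP13, MT1X, NFE2L2, NQO1, PRKDC, PTPRC, ZNF345, ZNF383, ZNF566 and ZNF611. Promoters came from RefSeq, whose build differs from that of the files, so its coordinates stand only beside sequences. Some genes are not reported here.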

Additional observations from a re-analysis of the deposited data

Results flagged for a closer look

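The difference between the lines after 4 Gy was set against that in sham cells with edgeR's quasi-likelihood test over all 24 libraries, with Benjamini-Hochberg adjustment, and 101 of 23824 genes (0.424%) passed. Of the genes named above 4 were among them. S100A7 had a log2 fold change, Cal33 over SAS, of -1.24 after 4 Gy and -5.96 in sham cells, and the tested difference was 4.71 ± 0.96 (SE, adjusted p = 0.0316). IL6 had -1.17 after 4 Gy and -5.24 in sham cells, a difference of 4.07 ± 0.61 (adjusted p = 0.00599 in edgeR). VIM had -1.96 after 4 Gy and -4.90 in sham cells, a difference of 2.95 ± 0.48 (adjusted p = 0.0104 in edgeR). WNT9A had 2.00 after 4 Gy and 4.49 in sham cells, a difference of -2.50 ± 0.33 (adjusted p = 0.00249 in edgeR). Each kept the sign that it had in sham cells. S100A7, IL6 and VIM had under 1 CPM in every sham Cal33 library, so the size of these differences depends on low counts. The fold changes after 4 Gy and in sham cells come from separate fits of 6 libraries each.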

How the results depend on the processing

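With DESeq2's Wald test 5536 genes were higher in Cal33 and 5289 lower, and 92.5% of the edgeR calls were shared. With total counts in place of TMM 7079 were higher and 4484 lower, and the median log2 fold change of all genes was 0.21, against 0.058. Under that scaling the medians of 11 lists changed sign, each within 0.16 of 0 with TMM. Medians of 3 lists changed sign with a mean of at least 10 counts, the furthest from 0 having been 0.53. Leaving out 1 library did so for 2 to 5 lists, and counting without regard to strand for 1, all within 0.16 of 0. With a mean of at least 10 counts 1646 genes had a log2 fold change over 2, against 2491. Against a null of an absolute log2 fold change of 1 (glmTreat), 2579 genes were higher and 2137 lower, since that null is stricter. Leaving out 1 library gave 5042 to 5684 genes higher and 4539 to 5177 lower. Of 233 named genes 0 changed direction under any of these alternatives. Of them 2 lost their call with DESeq2, 4 lost and 4 gained it with total counts, 11 lost it at an adjusted p under 0.01, 34 lost it with glmTreat, and 0 to 6 lost it when 1 library was left out. The calls that 1 library decided stand beside the genes above, besides FLG, whose call was lost in 5 of 6 such fits, and PTPRC, called in 1.

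The replicate numbers did not pair the sham Cal33 with the sham SAS libraries: deviations of same-numbered libraries correlated at 0.136, -0.094 and -0.046. Libraries of one line across treatments were not compared in this way. With the replicate block 5676 genes were higher and 5251 lower. A block within each line gave 621 genes for the difference under 4 Gy minus sham, against 101, and the cause was not tested.

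With 3 libraries a line the median SE was 0.30 on the log2 scale, so small differences could not be seen. Both lines were read once, as 1 line each, and what separates the lines cannot be told apart from what separates 2 cultures.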

Other observations

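Several gene groups outside the account above were also read in the sham cells (25.3% of all genes were higher in Cal33 and 23.2% lower). Of 58 clustered histone genes 20 were higher and 1 lower (0 to 2 lower when 1 library was left out). HIST1H2BK, an H2B gene, had 23.9, 40.0 and 18.5 CPM in Cal33 cells, against 0.282, 0.266 and 0.206 CPM in SAS cells. HIST1H1C, a linker histone, was higher, with a log2 fold change of 3.53 ± 0.38. Of 10 mucins 6 were higher and 2 lower (1 lower without Cal33 replicate 2 or 3 or without SAS replicate 1 or 2). MUC4, a membrane mucin, had 28.6, 14.1 and 49.7 CPM in Cal33 cells, against 0.0470, 0.141 and 0.0325 CPM in SAS cells. MUC20 was higher, with a log2 fold change of 4.85 ± 0.50. Cholesterol synthesis genes were higher for 10 of 21 and lower for 2 (1 without SAS replicate 1). SQLE, squalene epoxidase, was lower, with a log2 fold change of -0.77 ± 0.20.

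Hypoxia and glycolysis genes numbered 9 higher and 8 lower of 29. ALDOA, a glycolytic aldolase, had 2594, 2648 and 2146 CPM in Cal33 cells, against 878, 1051 and 689.9 CPM in SAS cells. SLC16A3, a lactate exporter, had 88.3, 43.1 and 117 CPM in Cal33 cells, against 296, 299 and 321 CPM in SAS cells. SLC2A3, a glucose transporter, was lower, with a log2 fold change of -8.01 ± 0.47. Notch genes were higher for 4 and lower for 4 of 23, and the ligand JAG2 had 224, 169.9 and 191 CPM in Cal33 cells, against 541, 656 and 739 CPM in SAS cells. Of 12 genes of the glucocorticoid receptor and its targets 3 were higher and 4 lower, with hormone-induced genes on both sides. ANGPTL4 and PER1 were higher, with log2 fold changes of 3.48 ± 0.48 and 0.98 ± 0.31, and CEBPD and DUSP1 were lower, with log2 fold changes of -1.98 ± 0.38 and -1.97 ± 0.28. The PER1 call was lost without Cal33 replicate 3 or SAS replicate 3, at 0.50 and 0.97. Claudins were lower for 7 of 13 and higher for 3 (1 without Cal33 replicate 1 or SAS replicate 1), and CLDN11 was lower, with a log2 fold change of -7.57 ± 0.35. Of 9p21, 5 of 12 genes were lower and 2 higher. GAS5, a noncoding host of small nucleolar RNAs, had 102, 105 and 146 CPM in Cal33 cells, against 460.0, 348 and 648 CPM in SAS cells.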
